A study of Mus musculus with 10 samples.

Results

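Twist1, Twist2, Snai1, Snai2, Zeb1, Zeb2 and Prrx1 encode transcription factors that work in mesenchyme and in the transition of epithelial to mesenchymal cells. These 7 genes, of 50559 in the count files, were chosen by the level of Twist1, which is raised in MYC/SMARCA4 tumors, a mouse model of medulloblastoma (MB). The other 6 were added as its relatives in function. All 7 were among the 29952 genes that passed the filter on low counts. Twist1 in the comparisons of these tumors is therefore given as a description, with no test.

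Twist1 and Twist2 are basic helix-loop-helix (bHLH) proteins that bind DNA as dimers with E proteins, at short motifs called E-boxes. Snai1, Snai2, Zeb1 and Zeb2 are zinc finger proteins that bind E-boxes with the letters CAGGTG and repress genes of epithelial junctions, whereas Prrx1 is a homeodomain protein of limb and head mesenchyme. In the cerebellum, Zeb1 is known to be expressed in proliferating granule cell precursors, where it holds back polarity and the exit from the germinal zone, and Zeb2 acts in the development of neurons and glia.

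RNA was sequenced from 10 formalin-fixed, paraffin-embedded (FFPE) samples. The 4 MYC/SMARCA4 tumors grew in the cerebella of CD1nu/nu mice, and the animals were 112, 96, 89 and 79 days old for tumors 1 to 4. Granule cell precursors for the transplants came from Math1-creERT2::Smarca4fl/fl pups given tamoxifen on postnatal day 3, and received murine Myc by a lentivirus with a CMV promoter and an IRES-GFP cassette. They were not sorted for cells that had recombined or taken up the virus, the hosts keep their own cerebellar cells and vessels, and the donor strain (C57Bl6/J) differs from that of the hosts. The 3 P7 cerebella were whole cerebella of Math1-creERT2::Smarca4fl/fl mice, 7 days old, given 0.4 mg of tamoxifen on postnatal day 3. These controls carry the Smarca4 deletion in Math1-positive cells too, and the authors reported its knockdown in only part of the precursors isolated from such pups. The 3 SHH MB samples came from Math1-cre::Smofl/wt mice aged 7 days, in which Cre acts in Math1-positive cells and turns on an active form of Smo. Age, host strain and transplantation differ between the tumors and both other groups and cannot be told apart from the group.

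Total counts were 6547245, 6945005, 5663491 and 9352109 in tumors 1 to 4. The P7 cerebella had 8958307, 8139778 and 5933515 counts, and the SHH MB had 5930961, 7933586 and 7031248. Levels are given as CPM, counts scaled to a common normalized library size, and the floor of 3 counts corresponds to 0.304 to 0.737 CPM. The 4 tumors differed from each other far more than the samples of the other groups did. Chi-square per degree of freedom was taken over the genes with at least 10 counts summed over a pair. It was 26.6 to 99.1 between pairs of tumors, and 3.76 to 6.22 between pairs within the other groups. Mitochondrial genes took 6.36% of the counts in tumor 1 (95% Wilson interval 6.34 to 6.38). The shares in tumors 2, 3 and 4 were 2.94% (2.92 to 2.95), 2.89% (2.88 to 2.9) and 2.29% (2.28 to 2.3), and all other samples lay at or below 1.59%. Genes with sequence like that of rRNA had shares of 1.59%, 1.53%, 1.51% and 1.95% in tumors 1 to 4, and 0.353% to 0.874% in the other samples. The genes with a count numbered 36933, 34735, 44158 and 42327 in tumors 1 to 4 and 42563 to 45490 in the others. These values move with the groups. With mitochondrial and rRNA-like genes left out of the library sizes, 0 of the members changed sign in each comparison. Zeb1 against SHH MB was then at -2.66 on the log2 scale (adjusted p = 0.00735 by edgeR's quasi-likelihood test). Apart from this scaling, the part of these values in the results was not tested. The 4 tumors have different ages at sampling and so came from separate animals, which the labels do not state for the other samples. P-values and the intervals of log2 fold changes measure the spread between the samples, whereas Wilson intervals and floors cover counting error only.

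The labels were checked on both altered genes. Myc, the transgene, reached 151, 365, 1570 and 1010 CPM in tumors 1 to 4, against 12.9 to 14.2 in P7 cerebella and 33.4 to 45.4 in SHH MB. It rose over P7 cerebella by a log2 fold change of 5.85 (SE 0.747, higher in 4 of 4 tumors, adjusted p = 0.00194 by edgeR's quasi-likelihood test). Smarca4, which encodes the ATPase of the BAF remodeling complex, was measured at 207, 242, 135 and 236 CPM in the tumors. Its log2 fold change was -0.30 (SE 0.28, adjusted p = 0.495 by edgeR's quasi-likelihood test) against P7 cerebella and -1.39 (SE 0.28, adjusted p = 0.0157) against SHH MB, with all 4 tumors below. By staining, the authors found SMARCA4 protein lost in all tumor cells. The part of the deletion in the P7 cerebella, or of host cells in the tumors, in these RNA values was not tested. Counts per gene do not separate recombined from intact Smarca4 transcripts or transgenic from endogenous Myc.

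Twist1, which specifies head mesenchyme and drives epithelial cells toward a mesenchymal state, is the gene the choice rests on. Its raw counts were 19, 284, 392 and 77 in tumors 1 to 4, 15, 12 and 8 in P7 cerebella, and 12, 21 and 18 in SHH MB. On the normalized scale these are 4.67, 50.7, 54.4 and 9.31 CPM in the tumors. The P7 cerebella lay at 1.52, 1.3 and 1.13 CPM and the SHH MB at 1.85, 2.45 and 2.54. Every tumor lay above every other sample, and the tumors fell apart into tumors 2 and 3 with high levels and tumors 1 and 4 with low ones. In bulk tissue, fewer cells that express a gene and less RNA of it per cell cannot be told apart.

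Group means of Twist1 were 29.8 ± 26.4 CPM in the tumors (SD, n = 4), 1.32 ± 0.195 in P7 cerebella (n = 3) and 2.28 ± 0.374 in SHH MB (n = 3). The highest tumor was 11.7-fold above the lowest. Against the highest P7 cerebellum the excess was 3.07-fold in tumor 1, 33.4-fold in tumor 2, 35.8-fold in tumor 3 and 6.13-fold in tumor 4. Against the highest SHH MB it was 1.84-fold, 20-fold, 21.5-fold and 3.67-fold in the same order. The fitted log2 fold change was 4.48 (SE 0.798) over P7 cerebella and 3.70 (SE 0.761) over SHH MB. Both comparisons use the same 4 tumors. SHH MB and P7 cerebella did not overlap in Twist1, with all 3 SHH MB above, yet the log2 fold change between them was 0.78 (SE 0.805) and was not called by edgeR's quasi-likelihood test (adjusted p = 0.856).

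Twist1 lies on chromosome 12 at 34007645 to 34009828 of GRCm39, on the plus strand, and no other annotated gene overlaps it. Its promoter is shown because Twist1 is the gene that set the choice and Myc, which binds E-boxes, is the transgene. The window holds the 250 bases before the annotated start, chr12:34007395-34007644, and capitals would mark E-boxes (CANNTG, both strands).

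Twist1 promoter: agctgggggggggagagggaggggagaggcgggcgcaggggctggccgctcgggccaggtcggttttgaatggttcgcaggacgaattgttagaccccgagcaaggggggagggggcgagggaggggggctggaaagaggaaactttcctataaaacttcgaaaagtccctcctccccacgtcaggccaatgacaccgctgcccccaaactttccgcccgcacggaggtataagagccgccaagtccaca

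No CANNTG is present in this window, and so neither CACGTG, the E-box bound by MYC with MAX, nor CAGGTG, both of which are special cases of it. Among 21757 promoters of the same length, 64.8% hold a CANNTG, 6.26% a CACGTG and 17.7% a CAGGTG, with both strands searched. The window contains 63.2% G and C, against a median of 53.2% over all promoters.

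**Figure D1:**
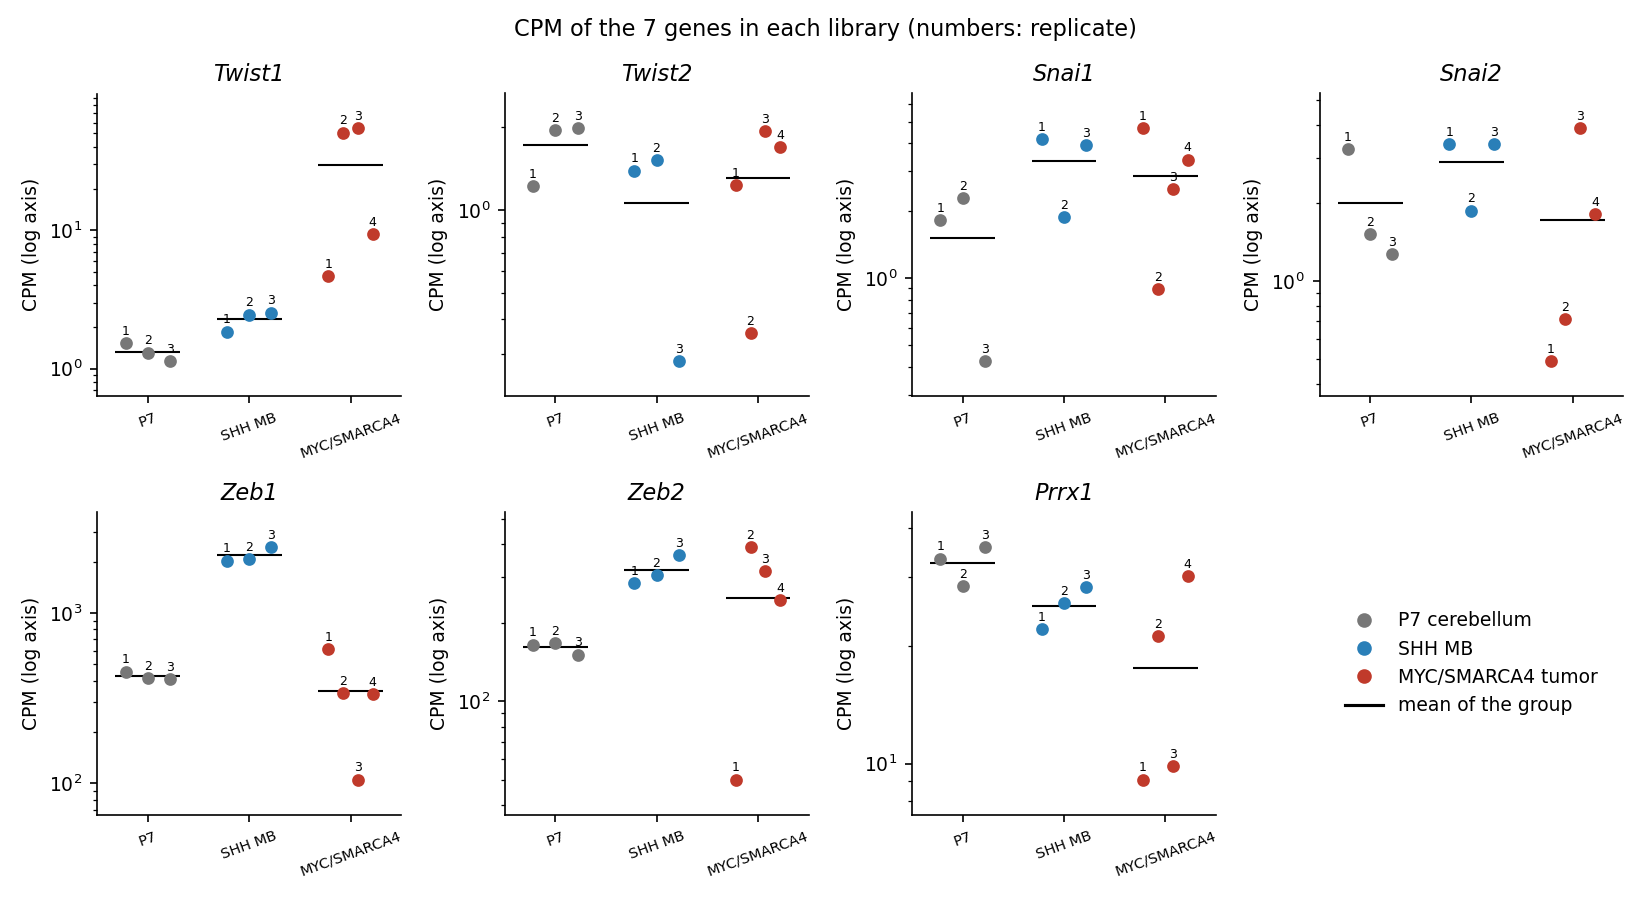
CPM of each of the 7 genes (log axis) in P7 cerebella (n = 3), SHH MB (n = 3) and MYC/SMARCA4 tumors (n = 4), with 1 point per sample, numbered by replicate, and a line at the group mean. Twist1 lies above all other samples in every tumor, and Zeb1 is highest in the 3 SHH MB.

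Twist2, the close paralog of Twist1 that acts in dermis and bone, was near the limit of detection in all groups. It had 5, 2, 14 and 14 counts in the tumors, 12, 18 and 14 in P7 cerebella, and 9, 13 and 2 in SHH MB. Tumor 2, with 50.7 CPM of Twist1, had 0.357 CPM of Twist2, which is under its floor. Twist2 therefore did not share the pattern of Twist1, and its groups overlapped in all comparisons. The log2 fold change was -0.36 (SE 0.662, adjusted p = 0.737 by edgeR's quasi-likelihood test) against P7 cerebella and 0.31 (SE 0.69, adjusted p = 0.838) against SHH MB. The latter turned to -0.09 without tumor 3 and to -0.15 without SHH MB 3. Part of the Twist2 exons, 26.6%, is shared with the antisense transcript Gm29100, and the strand setting of the counting is not stated.

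Snai1, a repressor of E-cadherin, had few counts as well. Its counts were 19, 5, 18 and 28 in the tumors, 18, 21 and 3 in P7 cerebella, and 27, 16 and 28 in SHH MB. The levels were 4.67, 0.892, 2.5 and 3.39 CPM in the tumors, 1.82, 2.27 and 0.424 in P7 cerebella, and 4.17, 1.87 and 3.94 in SHH MB. Tumor 2 was lowest among the tumors and P7 cerebellum 3 was at its floor, and the groups overlapped in every comparison. The tumors had a log2 fold change of 0.88 against P7 cerebella (SE 0.648, adjusted p = 0.39 by edgeR's quasi-likelihood test). Against SHH MB it was -0.22 (SE 0.624, adjusted p = 0.875), and 0.07 without tumor 2.

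Snai1 lies on chromosome 2 at 167380113 to 167384734, on the plus strand, and shares 12.7% of its exon bases with the antisense transcript Gm75792, which also spans the window below. This promoter is shown beside that of Twist1 because it holds a motif of the kind that the Snail and Zeb proteins themselves bind. It is chr2:167379863-167380112 of GRCm39, the 250 bases before the annotated start, with the E-box in capitals.

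Snai1 promoter: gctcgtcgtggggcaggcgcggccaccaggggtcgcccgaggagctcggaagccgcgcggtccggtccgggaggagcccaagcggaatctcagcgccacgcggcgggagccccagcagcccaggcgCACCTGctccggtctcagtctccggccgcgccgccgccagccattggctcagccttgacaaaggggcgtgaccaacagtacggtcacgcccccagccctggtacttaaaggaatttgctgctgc

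The capitals spell CAGGTG on the opposite strand, and the motif starts at position -124 from the start of the canonical transcript, before which all these windows lie. Zeb1 was the other member with this motif, with 2 copies at -225 and -67. The start so chosen is that of the gene for all members but Zeb1, where it lies 13 bases inside the gene, and Zeb2, where it lies 4209 bases inside. Snai2 held 3 E-boxes with other letters, Twist2, Zeb2 and Prrx1 held none, and no member held CACGTG. A match is a description of the sequence and not a site of binding.

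Snai2, a factor of migrating neural crest cells, had 2 to 32 counts per sample. It was measured at 0.491, 0.714, 3.89 and 1.81 CPM in tumors 1 to 4. The P7 cerebella lay at 3.24, 1.52 and 1.27 CPM and the SHH MB at 3.39, 1.87 and 3.38. Tumors 1 and 2 were the lowest of all 10 samples, tumor 3 was the highest, and the groups overlapped. Log2 fold changes of the tumors were -0.18 (SE 0.66, adjusted p = 0.872 by edgeR's quasi-likelihood test) against P7 cerebella and -0.68 (SE 0.654, adjusted p = 0.608) against SHH MB. The former was 0.02 without tumor 1, 0.08 without tumor 2 and 0.33 without P7 cerebellum 1. The 95% interval of the log2 fold change against P7 cerebella ran from -1.79 to 1.07 for Twist2, from -0.52 to 2.28 for Snai1 and from -1.60 to 1.25 for Snai2. Differences within these bounds are not excluded.

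Zeb1, the zinc finger and homeodomain repressor of the germinal zone, had the highest mean of the members per kilobase in each group, although Twist1 exceeded it in tumors 2 and 3 and Zeb2 in tumor 3. It was the only member called in any comparison with all 10 samples in the fit. Its raw counts were 2493, 1887, 759 and 2768 in the tumors, 4474, 3847 and 2877 in P7 cerebella, and 13136, 17682 and 17355 in SHH MB. These are 612, 337, 105 and 335 CPM in tumors 1 to 4, 453, 416 and 407 in P7 cerebella, and 2030, 2070 and 2440 in SHH MB. All 3 SHH MB stood far above every other sample. Tumor 1 lay above the P7 cerebella and the other 3 tumors below them, so these groups overlapped.

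In the tumors relative to SHH MB, Zeb1 fell by 2.65 on the log2 scale (SE 0.465, lower in 4 of 4 tumors, adjusted p = 0.00725 by edgeR's quasi-likelihood test). It was called under each of 19 alternatives, with adjusted p from 1.69e-06 to 0.048. The lowest SHH MB exceeded tumor 1 by 3.31-fold, tumor 2 by 6.02-fold, tumor 3 by 19.2-fold and tumor 4 by 6.05-fold. Of the 6 members other than Twist1, 1 was called lower and 0 higher against SHH MB. Over all genes tested, 2.26% were called lower and 2.43% higher. DESeq2 also called 1 of the 6 lower and 0 higher (3.5% and 6.64% of all genes), as many as had an unadjusted p of at most 0.05 (7.09% lower and 12.7% higher of all genes).

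Against P7 cerebella the log2 fold change of Zeb1 was -0.29 (SE 0.453), with adjusted p = 0.682 by edgeR's quasi-likelihood test. In that comparison 0 of the 6 members other than Twist1 were called in either direction, while 3.99% of all genes tested were called higher and 2.27% lower. By an unadjusted p of at most 0.05, 1 of the 6 was lower and 0 higher (9.98% and 15.3% of all genes), and DESeq2 called 0 (4.41% lower and 10% higher of all genes). Both comparisons of the tumors stem from the contrast that set the choice, so nothing is read from these counts.

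Zeb1 in SHH MB against P7 cerebella was 5.12-fold higher (log2 fold change 2.36, SE 0.51, higher in 3 of 3 SHH MB). It was not called in the fit of all 10 samples (adjusted p = 0.11 by edgeR's quasi-likelihood test). That fit uses 1 estimate of the spread for the 3 groups, to which the differences between the tumors contribute. The gene was called with only SHH MB and P7 cerebella in the fit (adjusted p = 1.27e-13), without tumor 1 (0.00447), without tumor 3 (0.00362), with at least 10 counts in every library (0.0397) and by DESeq2 (0.000289). Calls over all genes rose too, to 6883 with only these groups, 1210 without tumor 1 and 442 without tumor 3. They were 143 with at least 10 counts in every library, and 67 in the fit of all 10 samples. Over the 19 alternatives the adjusted p of Zeb1 ranged from 1.27e-13 to 0.532 and its log2 fold change from 2.27 to 2.44. Of the 6 members other than Twist1, 0 were called in this comparison by edgeR, against 0.177% of all genes called higher and 0.0467% called lower. At an unadjusted p of at most 0.05, 1 of the 6 was higher and 0 lower (5.16% and 3.64% of all genes), and DESeq2 called 1 higher and 0 lower (1.13% and 0.431%).

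Zeb2, the paralog of Zeb1 that binds SMAD proteins, varied among the tumors in another way. It was measured at 50.1, 391, 315 and 244 CPM in tumors 1 to 4. The P7 cerebella lay at 165, 167 and 151 CPM and the SHH MB at 284, 305 and 364. Tumor 1 was the lowest of all 10 samples and tumor 2 the highest, while tumors 2, 3 and 4 all lay above the P7 cerebella. The log2 fold change against P7 cerebella was 0.64 (SE 0.491, adjusted p = 0.411 by edgeR's quasi-likelihood test). Without tumor 1, where 9.64% of all genes were called higher, it was 0.89 and was called (adjusted p = 0.0213). It was called under no other of 19 alternatives, with adjusted p from 0.0213 to 0.71. Against SHH MB the log2 fold change was -0.34 (SE 0.482, adjusted p = 0.736), with overlap.

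Zeb2 in SHH MB was 1.97-fold above P7 cerebella (log2 fold change 0.98, SE 0.522, higher in 3 of 3, adjusted p = 0.641 by edgeR's quasi-likelihood test). With only these groups in the fit (6883 of all genes called) the adjusted p was 3.22e-07, and without tumor 1 (1210 called) it was 0.0316. The other alternatives gave no call, and the range over all 19 reached 1. The transcript Zeb2os, which overlaps 3.83% of the exon bases of Zeb2 on the other strand, lay at 0.491 to 5.66 CPM in the 10 samples.

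The balance of Zeb1 and Zeb2 differed between samples. Zeb1 over Zeb2, each in CPM per kilobase of exon, was 20.4, 1.44, 0.558 and 2.29 in tumors 1 to 4. The ratio was 4.58, 4.16 and 4.51 in P7 cerebella and 11.9, 11.3 and 11.2 in SHH MB. Tumor 1 had the highest ratio of all samples, and the tumors spanned the range of both other groups. Tumor 3 was the only sample with more Zeb2 than Zeb1 per kilobase. Without scaling to exon length, tumor 2 also had more Zeb2, at 391 CPM against 337 of Zeb1.

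**Figure D2:**
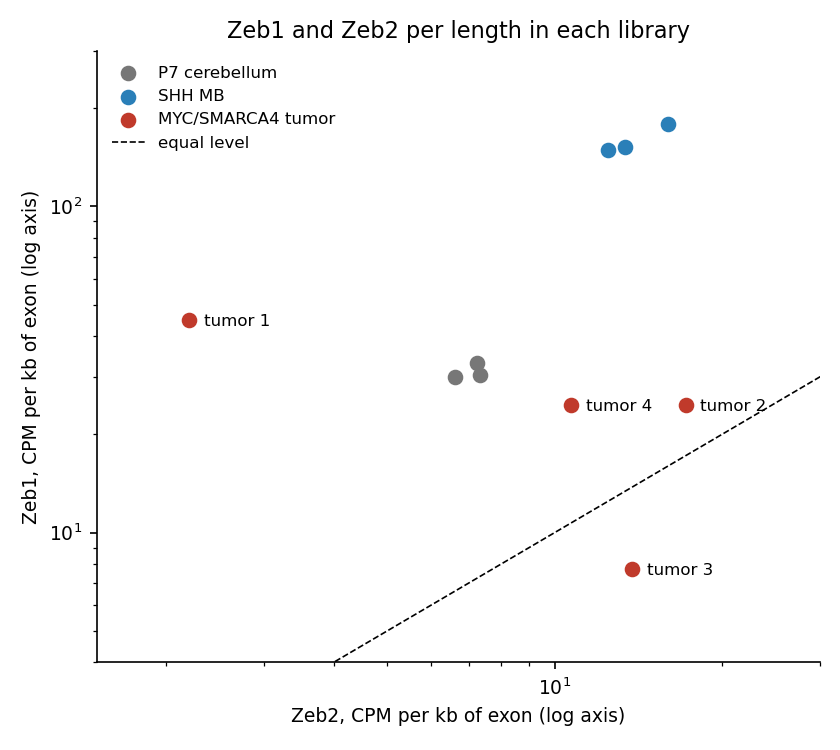
Zeb1 against Zeb2 in CPM per kilobase of exon (both log axes), with 1 point per sample and a dashed line at equal levels. P7 cerebella and SHH MB form tight groups, whereas the 4 tumors are spread, from tumor 1 at a ratio of 20.4 to tumor 3 at 0.558.

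Prrx1, the homeodomain factor of mesenchyme and fibroblasts, had its lowest mean in the tumors. Its counts were 37, 119, 71 and 249 in the tumors, 330, 262 and 253 in P7 cerebella, and 143, 220 and 200 in SHH MB. The levels were 9.09, 21.2, 9.85 and 30.1 CPM in the tumors, 33.4, 28.4 and 35.8 in P7 cerebella, and 22.1, 25.7 and 28.2 in SHH MB. Tumors 1 and 3 were the lowest samples, and tumor 4 lay within the P7 range. The log2 fold change was -0.88 against P7 cerebella (SE 0.376, below all of them in 3 of 4 tumors, adjusted p = 0.169 by edgeR's quasi-likelihood test). It was -0.52 (SE 0.378, adjusted p = 0.483) against SHH MB. SHH MB lay below P7 cerebella in all 3 samples, with a log2 fold change of -0.36 (SE 0.404, adjusted p = 0.869).

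**Figure D3:**
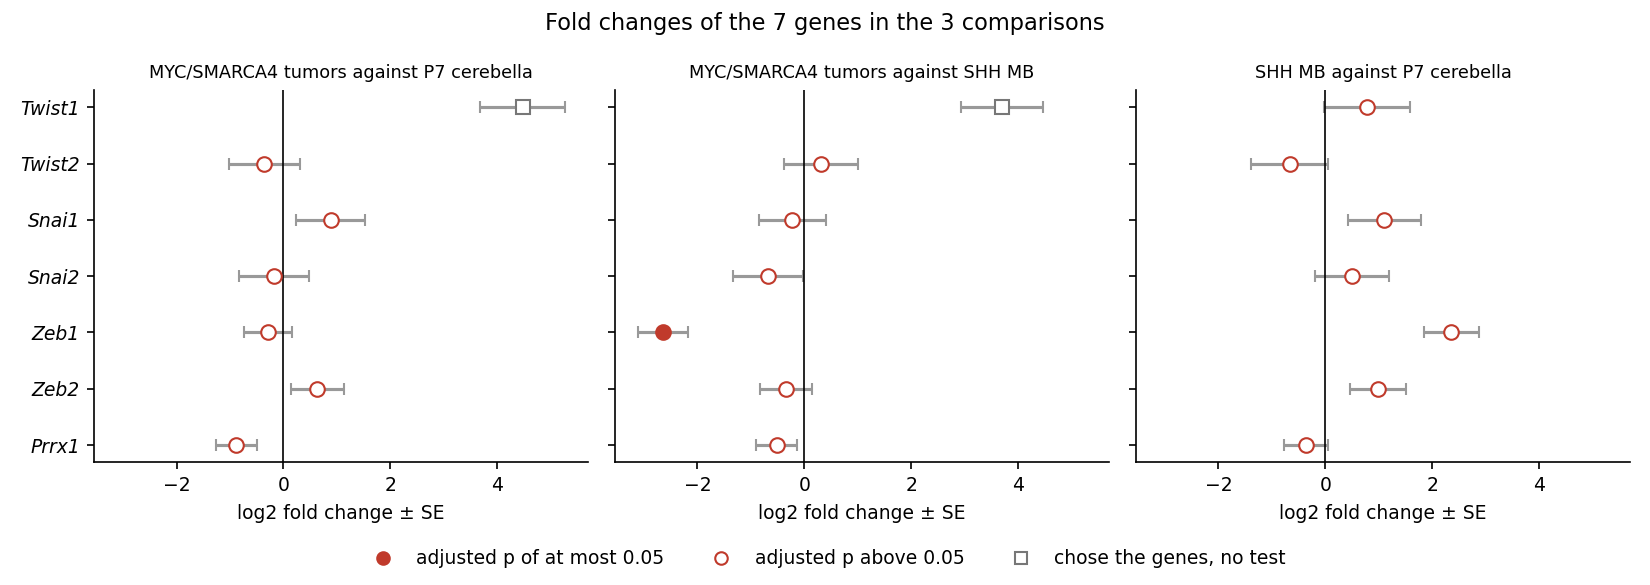
Fitted log2 fold change with its standard error for each of the 7 genes in the 3 comparisons (n = 4 tumors, 3 P7 cerebella, 3 SHH MB). Filled circles are called at an adjusted p of at most 0.05, open circles are not, and squares mark Twist1 where it set the choice and was not tested. Zeb1 against SHH MB, at -2.65, is the only filled circle.

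The order of the members' levels differed between the groups. In P7 cerebella the means in CPM per kilobase of exon were 31.2 for Zeb1, 7.08 for Zeb2, 1.97 for Prrx1, 0.929 for Snai1, 0.868 for Snai2, 0.797 for Twist1 and 0.308 for Twist2. Snai1, Snai2 and Twist1 overlapped with their neighbors in this order, and the other steps did not. In SHH MB the means in CPM per kilobase were 160 for Zeb1, 14 for Zeb2, 2.05 for Snai1, 1.53 for Prrx1, 1.38 for Twist1, 1.24 for Snai2 and 0.191 for Twist2. Neighbors from Snai1 to Snai2 overlapped there, while Zeb1, Zeb2 and Twist2 stood apart.

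In the tumors the means in CPM per kilobase were 25.5 for Zeb1, 18 for Twist1, 11 for Zeb2, 1.76 for Snai1, 1.06 for Prrx1, 0.746 for Snai2 and 0.234 for Twist2. Every gene in this order overlapped with the next. Twist1 per kilobase was 2.82, 30.7, 32.9 and 5.63 CPM in tumors 1 to 4, and Zeb1 44.9, 24.7, 7.73 and 24.6. Twist1 was thus second by the mean but in no single tumor, since it was the first of the members in tumors 2 and 3 and the third in tumors 1 and 4. In tumor 1 Snai1, at 2.88 CPM per kilobase, lay above it and in tumor 4 Zeb2, at 10.7. Snai1 and Twist1 both had 19 counts in tumor 1, so their order there rests on exon lengths of 1623 and 1653 bases. Per kilobase, Twist1 exceeded Twist2 by 12.8-fold, 478-fold, 94.3-fold and 18.5-fold in tumors 1 to 4, with the value of tumor 2 resting on 2 counts of Twist2. In P7 cerebella that ratio per kilobase was 4.21, 2.25 and 1.93, and in SHH MB 4.49, 5.44 and 30.3, the last again resting on 2 counts.

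Twist proteins act with partners. The list of bHLH partners and inhibitors holds 9 genes, among them the E proteins and the Id proteins that sequester them. EdgeR called 0 of 9 in each of the 3 comparisons. At an unadjusted p of at most 0.05, 1 was higher and 2 lower against P7 cerebella (15.3% and 9.98% of all genes). There was 1 higher against SHH MB (12.7%) and 1 higher in SHH MB against P7 cerebella (5.16%). DESeq2 called 1 higher, 1 higher and 0 in the same order, where 10%, 6.64% and 1.13% of all genes were higher. The median log2 fold change of the list was -0.33 against P7 cerebella and -0.21 against SHH MB, where the medians of all genes tested were -0.05 and 0.01. Against P7 cerebella edgeR called 2 higher without tumor 1, 1 higher and 1 lower without tumor 2, and 1 lower without tumor 3. Against SHH MB it called 1 higher without tumor 1, 2 or 3, and 1 higher in SHH MB against P7 cerebella without tumor 1. Counts of lists without single samples were added after the data were seen. Calls over all genes tested moved too, as the background of each list. Against P7 cerebella 9.64% were higher and 6.11% lower without tumor 1, and 11.8% and 22.8% without tumor 3. Against SHH MB these shares were 5% and 4.75% without tumor 1 and 9.57% and 13.9% without tumor 3, and in SHH MB against P7 cerebella they were 2.86% and 1.19%, and 0.665% and 0.874%.

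Tcf4, an E protein and the most abundant gene of that list, lay at 1050, 1350, 989 and 1450 CPM in tumors 1 to 4. P7 cerebella had 920, 770 and 791 CPM and SHH MB 1320, 1410 and 1630, so this partner was expressed in every tumor. Hand2, a bHLH relative of Twist1 that competes for the same partners, was at 2.21, 0.357, 13.9 and 33.3 CPM in the tumors and at 0.771 to 1.73 in all other samples. It was singled out after its values were seen. It was high in tumors 3 and 4, of which tumor 3 is also high in Twist1, and under the floor in tumor 2.

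Corepressors that Snail, Zeb and Twist proteins recruit form a list of 13 genes, with the CtBP proteins, histone deacetylases and the Polycomb complex. Against P7 cerebella 2 rose and 0 fell, where 3.99% of all genes were called higher. Eed rose by 1.26 (SE 0.25, adjusted p = 0.016 by edgeR's quasi-likelihood test) and Suz12 by 1.18 (SE 0.292, adjusted p = 0.0353) on the log2 scale, and both encode subunits of Polycomb repressive complex 2. The count was 6 without tumor 1, 1 without tumor 2, without tumor 4 or without any 1 of the SHH MB, and 0 without any 1 of the P7 cerebella. Over all genes the share called higher moved as well, to 9.64% without tumor 1, 1.77% without tumor 2, 1.8% without tumor 4, 1.34% to 1.46% without any 1 of the SHH MB and 0.109% to 0.264% without any 1 of the P7 cerebella. The median of the list was 0.48 against P7 cerebella, -0.08 against SHH MB and 0.48 between SHH MB and P7 cerebella. EdgeR called 0 of 13 in the last 2 of these. At an unadjusted p of at most 0.05, 6 were higher against P7 cerebella (15.3% of all genes). Against SHH MB 2 were higher and 1 lower (12.7% and 7.09%), and 4 were higher in SHH MB against P7 cerebella (5.16%). DESeq2 called 4, 1 and 0 higher in these comparisons, beside 10%, 6.64% and 1.13% of all genes. Against SHH MB 1 was called higher and 1 lower without tumor 1 or 3, and 3 were called higher in SHH MB without tumor 1.

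TGF-beta and BMP signals induce several of the members, and 20 genes of these pathways were listed. Of these, 0 were called against P7 cerebella by edgeR. At an unadjusted p of at most 0.05, 3 were higher and 3 lower there (15.3% and 9.98% of all genes). DESeq2 called 2 higher and 1 lower (10% and 4.41% of all genes). Against SHH MB 1 rose and 1 fell, beside 2.43% and 2.26% of all genes. There 1 was higher and 2 lower at an unadjusted p of at most 0.05 (12.7% and 7.09% of all genes). DESeq2 called 1 higher and 1 lower (6.64% and 3.5% of all genes). Tgfbr3, the coreceptor betaglycan, rose by 1.67 (SE 0.357, adjusted p = 0.0205 by edgeR's quasi-likelihood test), and Tgfb2, a ligand, fell by 1.66 (SE 0.3, adjusted p = 0.00868), both in 4 of 4 tumors. Tgfbr3 was not called without any 1 of the SHH MB, and Tgfb2 was not called without SHH MB 2 or 3, so that the counts were 0. Against P7 cerebella 2 were called higher without tumor 1 or 3 (9.64% and 11.8% of all genes) and 1 without tumor 4 (1.8%), and 1 was called lower without tumor 1 or 2 (6.11% and 1.6%) and 2 without tumor 3 (22.8%). Between SHH MB and P7 cerebella edgeR called 0 (1 higher without tumor 1). At an unadjusted p of at most 0.05, 2 were higher and 1 lower (5.16% and 3.64% of all genes). DESeq2 called 1 higher (1.13% of all genes). The medians of the log2 fold change were 0.17, -0.0049 and 0.30 in the 3 comparisons. Bmpr2, the most abundant gene, lay at 466, 459, 212 and 374 CPM in the tumors, 267 to 341 in P7 cerebella and 342 to 397 in SHH MB.

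The members are known to repress genes of epithelia. The list of 20 genes, with E-cadherin, claudins and keratins, summed to 86, 53, 94.2 and 72.5 CPM in the tumors. The sums were 102, 102 and 105 CPM in P7 cerebella and 86.9, 83.1 and 67.2 in SHH MB. EdgeR called 0 of 20 in each comparison. At an unadjusted p of at most 0.05, 3 were lower against P7 cerebella, beside 9.98% of all genes, and 0 in the other comparisons. DESeq2 called 0 in all 3 comparisons. Without tumor 3, 7 were called lower against P7 cerebella and 2 against SHH MB. Over all genes tested, 22.8% and 13.9% were called lower without tumor 3 in these comparisons. Cdh1, the gene of E-cadherin, was measured at 17.7, 19.6, 4.3 and 9.8 CPM in tumors 1 to 4 and 6.51 to 12 in the other samples. It was named after its values were seen and does not stand for the list, whose sum was lowest of the tumors in tumor 2 and highest in tumor 3, the opposite of Cdh1.

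Mesenchymal effectors, such as vimentin, fibronectin and matrix proteases, were called lower in the tumors, where called at all with all 10 samples in the fit. Of 20 genes 19 were tested, and S100a4 did not pass the filter. Against P7 cerebella edgeR called 0 higher and 4 lower, and against SHH MB 0 higher and 5 lower, where 2.27% and 2.26% of all genes were lower. By DESeq2, 0 were higher and 4 and 6 lower (4.41% and 3.5% of all genes lower), and at an unadjusted p of at most 0.05, 0 and 1 were higher and 8 and 7 lower (9.98% and 7.09% of all genes lower). The medians of the log2 fold change were -0.33 and -0.66. Without tumor 3, 1 was called higher in each comparison.

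Cdh11, an adhesion protein of mesenchyme, fell by 1.58 on the log2 scale against P7 cerebella (SE 0.328, adjusted p = 0.0186 by edgeR's quasi-likelihood test). Mmp14, a membrane-bound matrix protease, was at 13.8, 25.2, 10.5 and 21.8 CPM in the tumors, 43.9 to 53.8 in P7 cerebella and 123 to 139 in SHH MB. It fell by 1.47 (SE 0.297, adjusted p = 0.0168) against P7 cerebella and by 2.85 (SE 0.305, adjusted p = 0.000278) against SHH MB. Mmp2, Postn and, against SHH MB, Cd44 were the other genes called. The count of 4 against P7 cerebella became 2 without tumor 2 or any 1 of the SHH MB and 0 without any 1 of the P7 cerebella. Of all genes, the share called lower also dropped, from 2.27% to 1.6% without tumor 2, 1.02% to 1.09% without any 1 of the SHH MB and 0.5% to 0.641% without any 1 of the P7 cerebella. The count of 5 against SHH MB became 3 without SHH MB 1 or 2 and 2 without SHH MB 3, where the share of all genes was 0.969%, 0.902% and 0.789%.

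In SHH MB against P7 cerebella edgeR called 0 of the 19 effectors. DESeq2 called 2 higher (1.13% of all genes), and 5 were higher at an unadjusted p of at most 0.05 (5.16% of all genes). The median was 0.34 against -0.09 for all genes. Without tumor 1 edgeR called 2 higher and without tumor 3 it called 1. Sparc, the most abundant effector over all 10 samples, was at 252, 288, 54.4 and 194 CPM in tumors 1 to 4. Vim lay above it in tumors 3 and 4, at 89.9 and 232 CPM, and in every SHH MB, at 261 to 319. Tumor 3, with the most Twist1, had the least Sparc, while tumor 2, with 50.7 CPM of Twist1, had the most of all 10 samples. The 20 effectors summed to 517 CPM in tumor 3 and to 1040, 1280 and 1270 in tumors 1, 2 and 4.

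**Figure D4:**
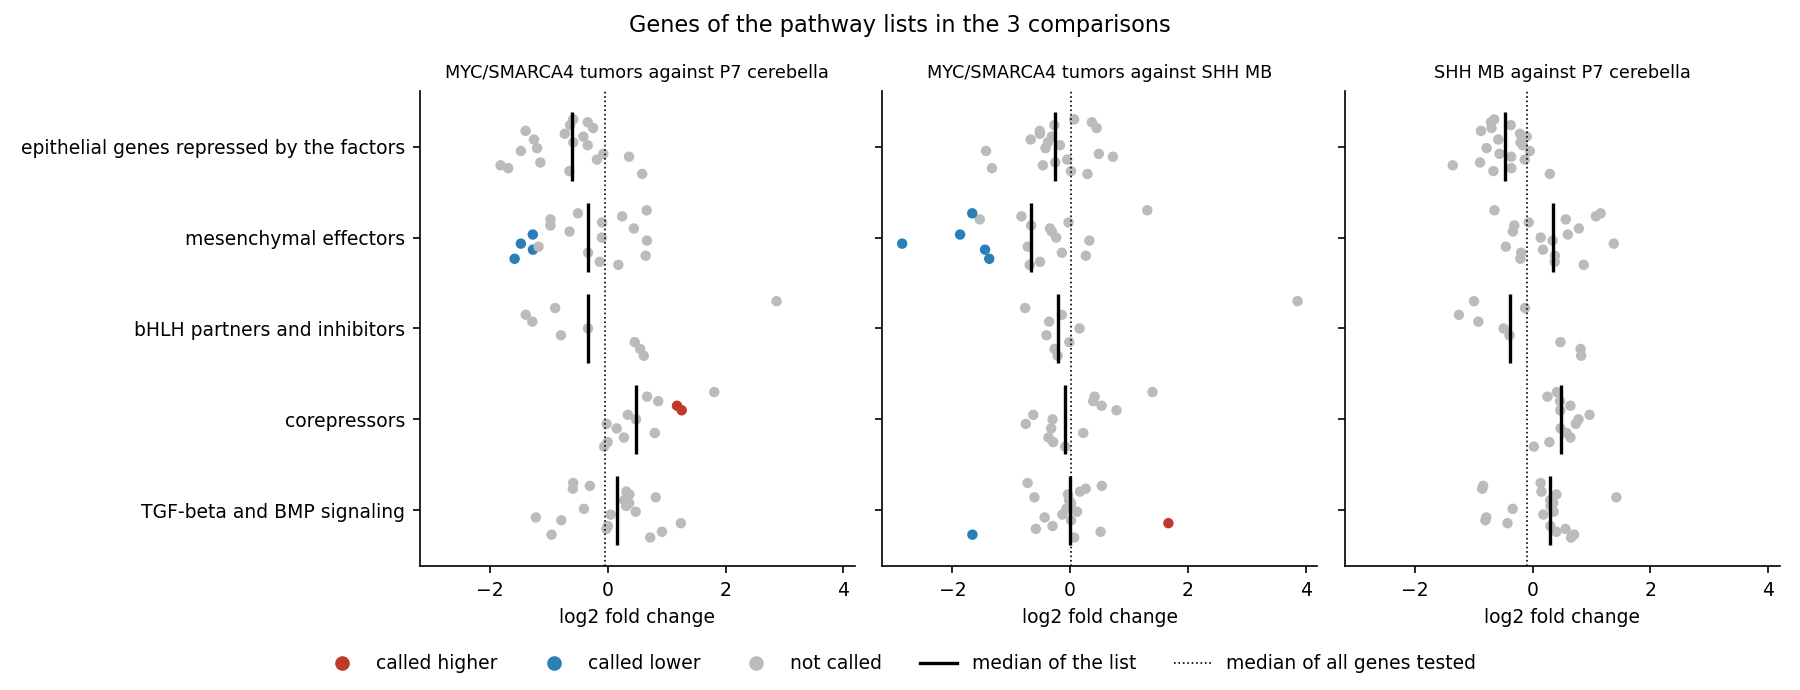
Log2 fold change of each tested gene of 5 pathway lists in the 3 comparisons, with 1 point per gene, a black bar at the median of the list and a dotted line at the median of all genes tested. Of the mesenchymal effectors 4 are lower against P7 cerebella and 5 against SHH MB.

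Other transcription factors of mesenchyme were listed beside the members, 22 genes in all. Calls went in both directions, and not every gene called is given here. Of the 22, 1 rose and 2 fell against P7 cerebella, where 3.99% of all genes were called higher and 2.27% lower. Against SHH MB 2 rose and 1 fell, where 2.43% of all genes were called higher and 2.26% lower. Meox2, a factor of somites and vessels, rose against SHH MB by 2.77 (SE 0.726, adjusted p = 0.0478 by edgeR's quasi-likelihood test). The groups overlapped, with tumor 1 at 0.983 CPM of Meox2 and the SHH MB at 0.309 to 1.52. Foxf2, of brain pericytes, fell against SHH MB by 1.84 (SE 0.437, adjusted p = 0.032 by the same test). Against P7 cerebella, Msx2, a target of BMP signals, fell by 2.24 (SE 0.392, adjusted p = 0.00976) and Tfap2a, of neural crest and cerebellar interneurons, by 1.42 (SE 0.39, adjusted p = 0.0499). The medians of the list were -0.31 and 0.03, beside -0.05 and 0.01 for all genes. The count lower against P7 cerebella was 5 without tumor 1, 1 without tumor 4, P7 cerebellum 1 or any 1 of the SHH MB, and 0 without P7 cerebellum 2 or 3. The share of all genes called lower was then 6.11% without tumor 1, 1.55% without tumor 4, 0.5% to 0.641% without any 1 of the P7 cerebella and 1.02% to 1.09% without any 1 of the SHH MB. Against SHH MB the count lower was 3 without tumor 1 or 3 (4.75% and 13.9% of all genes) and 0 without any 1 of the SHH MB (0.789% to 0.969%). In SHH MB against P7 cerebella edgeR called 0 of 22, with 1 higher and 1 lower at an unadjusted p of at most 0.05. DESeq2 called 1 lower. Of all genes, 5.16% were higher and 3.64% lower at that unadjusted p, and DESeq2 called 0.431% lower. EdgeR called 1 higher and 1 lower without tumor 1 and 1 lower without tumor 3.

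Since fibroblasts and mural cells of vessels express several of the members, their markers were measured in the same samples. The 14 markers of fibroblasts and meninges summed to 465, 2720, 942 and 669 CPM in tumors 1 to 4. The sums were 704, 764 and 643 in P7 cerebella and 694, 580 and 806 in SHH MB. The most abundant marker was Igf2, at 159, 2170, 796 and 177 CPM in the tumors and 198 to 309 in the other samples. Without Igf2 the sums were 306, 552, 146 and 492 CPM in tumors 1 to 4 and 382 to 498 in the other samples. Tumor 2 was the highest of the 10 samples in 7 of the 14 markers, and tumor 3, the other tumor high in Twist1, was the lowest in 7. None of the 14 markers was at 0 in any sample.

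Of these 14 markers 1 was called higher against P7 cerebella, Ogn with a log2 fold change of 1.34 (SE 0.367, adjusted p = 0.0487 by edgeR's quasi-likelihood test), and 0 lower, beside 3.99% and 2.27% of all genes. The count was 3 without tumor 3 and 0 without tumor 2, tumor 4 or any 1 of the other groups' samples, and 1 was called lower without tumor 4. Of all genes 11.8% were then higher without tumor 3, 1.77% without tumor 2 and 1.8% without tumor 4. That share was 0.109% to 0.264% without any 1 of the P7 cerebella and 1.34% to 1.46% without any 1 of the SHH MB. Without tumor 4, 1.55% of all genes were lower. EdgeR called 0 in the other comparisons, with 5 higher and 2 lower at an unadjusted p of at most 0.05 against SHH MB (DESeq2 1 and 1) and 0 and 1 in SHH MB against P7 cerebella (DESeq2 0 and 0). Of all genes 12.7% and 7.09% had such an unadjusted p against SHH MB (DESeq2 6.64% and 3.5%), and 5.16% and 3.64% in SHH MB against P7 cerebella (DESeq2 1.13% and 0.431%). Against SHH MB edgeR called 1 higher without tumor 1, 2 higher without tumor 3 and 1 lower without any 1 of the tumors. Markers of mural cells summed to 445, 421, 214 and 255 CPM in tumors 1 to 4, 280 to 305 in P7 cerebella and 341 to 366 in SHH MB. Over all 10 samples Rgs5 was the most abundant, although in tumor 4 it was at 63.1 CPM and Notch3 at 63.4. Tagln was at 0 in tumor 1 and in P7 cerebellum 2 and was not tested. Cspg4 was the only one of 11 tested mural markers called, lower against both groups (as were 2.27% and 2.26% of all genes), at -1.02 (SE 0.266, adjusted p = 0.0412) and -1.25 (SE 0.266, adjusted p = 0.0203), and against SHH MB the call was lost without any 1 of the SHH MB. Against P7 cerebella it was lost without tumor 2, tumor 4 or any 1 of the P7 cerebella or SHH MB. Without tumor 3, 2 mural markers were called higher against SHH MB. The part of these cells in the members' levels was not tested.

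Zeb1 and Zeb2 are also expressed in neurons and glia, and markers of these cells moved with the tumors. The 8 markers of mature granule neurons summed to 4700, 2030, 456 and 999 CPM in tumors 1 to 4, against 726 to 880 in P7 cerebella and 310 to 374 in SHH MB. Over all 10 samples the most abundant was Neurod1, at 363, 452 and 88.9 CPM in tumors 1, 2 and 4. Cbln3 exceeded it there, at 1740, 458 and 224 CPM. None was at 0, and 4 rose against P7 cerebella and 5 against SHH MB, where 3.99% and 2.43% of all genes were called higher. The 8 markers of Purkinje cells and interneurons summed to 12100, 2820, 360 and 1990 CPM in the tumors, 1320 to 1460 in P7 cerebella and 344 to 648 in SHH MB. Itpr1 was the most abundant of them, 0 were called against P7 cerebella by edgeR (3 higher at an unadjusted p of at most 0.05 and 2 by DESeq2), and 3 rose against SHH MB. Of all genes, 15.3% were higher against P7 cerebella at that unadjusted p and 10% by DESeq2. Tumor 1, with the highest Zeb1 and the lowest Zeb2 and Twist1 of the tumors, had the highest sums in both lists, and tumor 3, with the lowest Zeb1 and the highest Twist1, had the lowest.

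The 9 markers of granule cell precursors, the cells in which Zeb1 is known to act, summed to 1580, 1210, 712 and 857 CPM in the tumors. The sums were 1720, 1750 and 1630 in P7 cerebella and 2470, 2620 and 3040 in SHH MB, the group with the highest Zeb1. Zic1 was the most abundant and none was at 0. Against P7 cerebella 2 fell and 0 rose, against SHH MB 3 fell and 0 rose, and in SHH MB against P7 cerebella 2 rose and 0 fell. Of all genes, 2.27% were called lower in the first of these comparisons, 2.26% lower in the second and 0.177% higher in the third. Barhl1, a factor of these precursors, fell by 4.78 against SHH MB (SE 0.286, adjusted p = 6.28e-06 by edgeR's quasi-likelihood test). The part of these cells, of granule neurons and of Purkinje cells in the values of Zeb1 and Zeb2 was not tested.

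Glial and other markers moved as well. The 6 markers of oligodendrocyte precursors summed to 97.5, 304, 234 and 295 CPM in tumors 1 to 4. These sums lay below those of P7 cerebella, 486 to 545, and of SHH MB, 641 to 708, with 2 of 6 and 3 of 6 called lower, beside 2.27% and 2.26% of all genes. The 12 markers of myelinating oligodendrocytes summed to 4200, 891, 145 and 479 CPM in the tumors. Their sums were 1000 to 1180 in P7 cerebella and 147 to 426 in SHH MB. Against P7 cerebella and SHH MB 0 and 1 were called higher, beside 3.99% and 2.43% of all genes. At an unadjusted p of at most 0.05, 1 and 6 were higher (15.3% and 12.7% of all genes). DESeq2 called 1 and 4 higher (10% and 6.64% of all genes). Microglia and macrophages, which express Zeb2, had sums of 273, 135, 65.7 and 180 CPM in the tumors, 96.8 to 106 in P7 cerebella and 65.4 to 104 in SHH MB. EdgeR called 0 of their 12 markers in each comparison, where 4, 4 and 0 were higher at an unadjusted p of at most 0.05. DESeq2 called 1, 3 and 0. Of all genes, 15.3%, 12.7% and 5.16% were higher at that unadjusted p, and DESeq2 called 10%, 6.64% and 1.13% higher. Tumor 1 had the highest of these sums and the lowest Zeb2 of the tumors, and the part of microglia in Zeb2 was not tested.

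Among the remaining lists, astrocytes and Bergmann glia had 5 of 11 markers lower and 0 higher against P7 cerebella and 3 lower and 1 higher against SHH MB. For these and the lists that follow, the shares of all genes called lower were 2.27% against P7 cerebella and 2.26% against SHH MB, and those called higher 3.99% and 2.43%. Choroid plexus had 3 of 8 lower against each, led by Ttr at 0.178 to 3.05 CPM in the tumors and 228 to 1180 in the other samples. Endothelium had 0 of 12 called against P7 cerebella by edgeR (2 higher and 3 lower at an unadjusted p of at most 0.05, 2 higher by DESeq2) and 1 lower against SHH MB. Of all genes, 15.3% were higher and 9.98% lower against P7 cerebella at that unadjusted p, and DESeq2 called 10% higher. Bone and cartilage had 1 of 6 tested genes lower in both comparisons and erythrocytes 1 of 5. Markers of skeletal muscle summed to 6.07 to 26.5 CPM over all 10 samples, and edgeR called 0 of the 5 tested genes. At an unadjusted p of at most 0.05 at most 1 gene of muscle was called in a comparison, and DESeq2 called 0. Ckm, Tnnt3 and Mylpf of muscle and Bglap of bone were at 0 in tumor 1 or tumor 2. In SHH MB against P7 cerebella edgeR called Olig2 of the oligodendrocyte precursors higher, and 0 genes of the lists other than granule cell precursors. In these others 0 to 1 genes were higher and 0 to 4 lower at an unadjusted p of at most 0.05, and DESeq2 called 1, of mature granule neurons, lower. Of all genes, 5.16% were higher and 3.64% lower at that unadjusted p, and DESeq2 called 0.431% lower.

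The 4 tumors could be ordered differently by each member. Tumor 1 was the lowest tumor for 4 of the 7 members, Twist1, Snai2, Zeb2 and Prrx1, and the highest for Zeb1 and Snai1. It also had the least Myc and the highest sum in 8 of 15 marker lists. Tumor 3 was the highest tumor for Twist1, Twist2 and Snai2 and for Myc, the lowest for Zeb1, and the lowest in 9 of 15 marker lists. Its values of Twist2 and Snai2 rest on 14 and 28 counts, and it had the most genes with a count of the tumors. Tumor 2 was the highest for Zeb2 and tumor 4 for Prrx1. With 4 tumors, no relation between these values was tested, and neither was the part of Myc or of admixed brain cells in them.

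**Figure D5:**
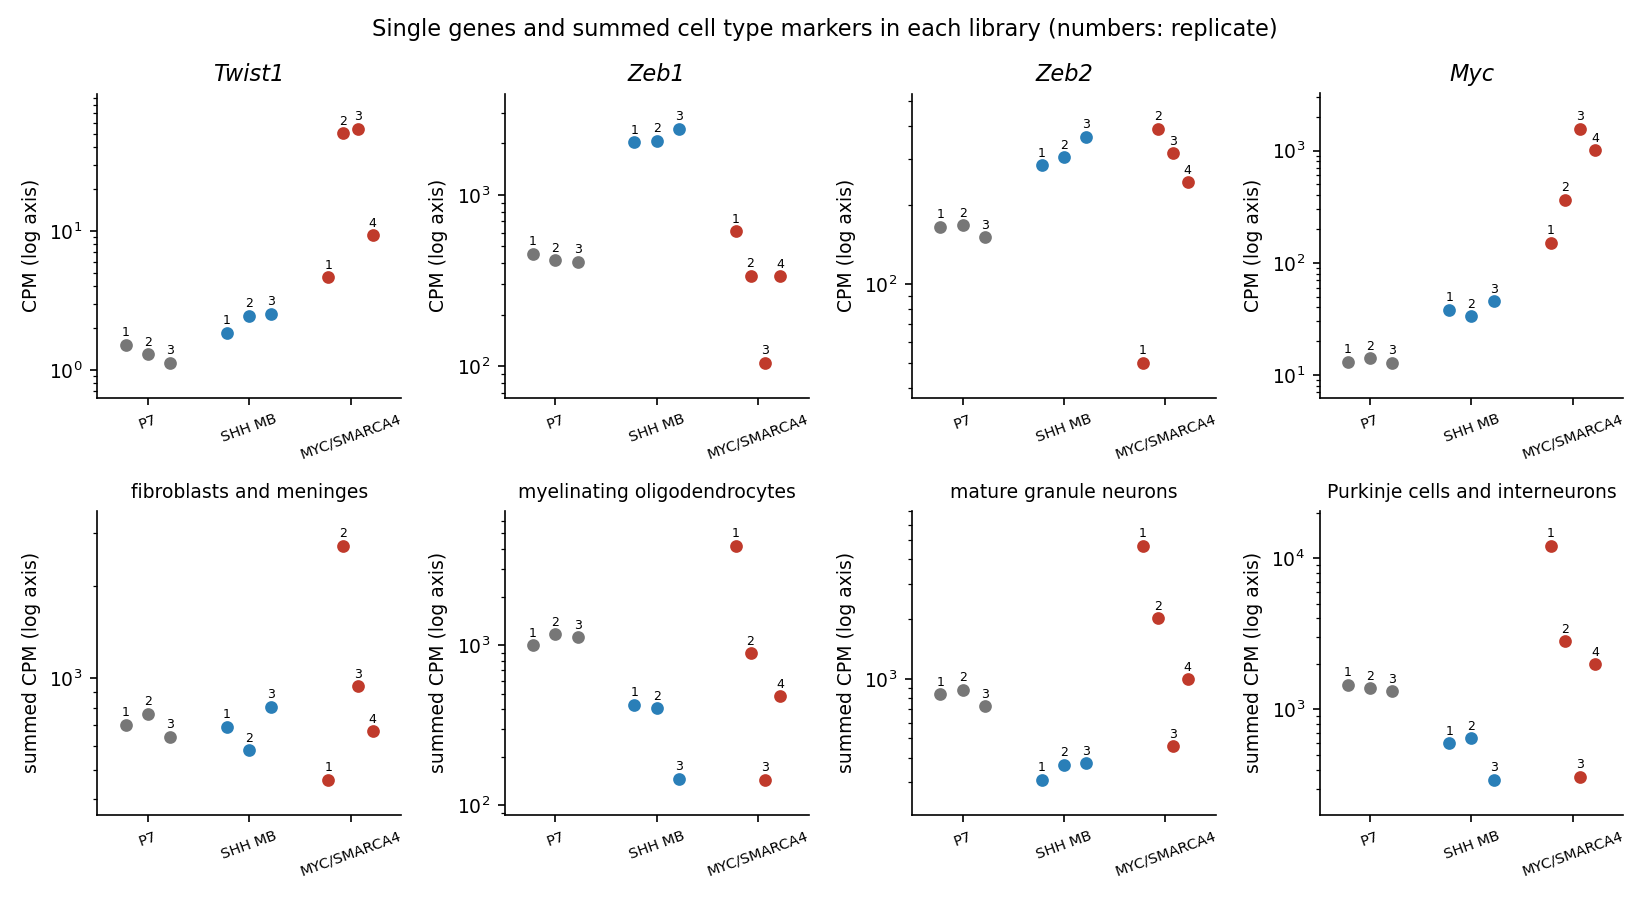
CPM of Twist1, Zeb1, Zeb2 and Myc (upper row) and summed CPM of 4 marker lists (lower row), all on log axes, with 1 point per sample, numbered by replicate. Tumor 1 has the least Twist1, Zeb2 and Myc and the highest sums of myelinating oligodendrocytes, mature granule neurons and Purkinje cells and interneurons, and tumor 3 has the lowest of these sums among the tumors.

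The protein-coding genes most like each member were ranked by Pearson's r of log2 CPM over the 10 samples, among 17008 genes. The 5 most like Twist1 were Sh3bgrl2 (r = 0.971), Sec23ip (0.964), L3mbtl2 (0.962), Msrb3 (0.96) and Rps14 (0.957). Sh3bgrl2 lay at 35.6 to 175 CPM in the tumors and no higher than 25.5 in the other samples. For Zeb1 the closest were Lpin2 (0.997), Ifitm2 (0.983) and Zmiz1 (0.978), and for Zeb2 they were St6gal1 (0.98), Diaph3 (0.979) and Ncapd2 (0.977). Lpin2 was at 111, 85.3, 52.5 and 83.3 CPM in tumors 1 to 4, highest in tumor 1 and lowest in tumor 3, as was Zeb1. It was picked for its likeness to Zeb1 in these same samples, so this order is not a separate result.

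Prrx1 was closest to Fat4 (0.971), Pcdh10 (0.959) and Hivep1 (0.944). The scarce members matched mostly scarce genes, with Usp17le (0.96), Sstr5 (0.953) and Cldn19 (0.945) for Twist2 and Serpinc1 (0.961), Obp2a (0.942) and Gm5414 (0.939) for Snai2. Snai1 was closest to Zfp653 (0.923), Zfp408 (0.899) and Homez (0.871). No member was among the closest genes of another. These values are the highest of 17008 for each member and are descriptions.

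Of the genes next to Twist1, Ferd3l, a bHLH gene 28336 bases away, was at 0.737, 0, 3.47 and 0.726 CPM in tumors 1 to 4 and at 0 to 1.4 in the other samples. Its highest value, from 25 counts, was in tumor 3, which also had the most Twist1, while tumor 2 had 0 counts of Ferd3l. Hdac9, a histone deacetylase gene 87751 bases away on the other side, was at 40, 30.2, 30.8 and 48.6 CPM in tumors 1 to 4. P7 cerebella had 58.8, 54.1 and 38.8 CPM of Hdac9 and SHH MB 116, 122 and 137. Its log2 fold change was -0.43 (SE 0.259, adjusted p = 0.299 by edgeR's quasi-likelihood test) against P7 cerebella, and it fell by 1.74 (SE 0.26, adjusted p = 0.00285) against SHH MB. The nearest protein-coding genes of the other 6 members were not called in any comparison. Neighbors were looked up after the members' values were seen.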

How the data were processed

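The authors isolated RNA from fixed tissue and sequenced CORALL libraries, depleted of ribosomal RNA, from 1 end. Reads were trimmed with Trimmomatic 0.38.1, aligned to GRCm39 with STAR 2.7.8a and counted with featureCounts 2.0.1. The deposited values per sample are raw counts per gene. The authors also deposited variance-stabilized values on a log2 scale, which served only for an alternative with limma. Groups were taken from the labels. Counts of all 10 libraries entered 1 edgeR 4.0.16 quasi-likelihood fit (R 4.3.3) with TMM factors, filterByExpr by group and a mean per group. P-values were adjusted by Benjamini-Hochberg over 29952 genes, and a gene was called at an adjusted p of at most 0.05. Log2 CPM used a prior count of 2. Exon lengths, positions and promoter starts, those of the canonical transcripts, came from GENCODE on GRCm39. Alternatives included DESeq2 1.42.0 and limma 3.58.1. The fit was tested on simulated data, where it missed most genes with the smaller change and recovered most with the larger.

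The members and the 21 gene lists were chosen with earlier results of these data known. Named genes are the members, up to 5 called genes of largest change and the most abundant gene of each list, markers at 0, the 5 genes most like Twist1 and 3 most like each other member, Myc, Smarca4, and overlapping genes. The report leaves out some results that this rule would print. Among them are a called gene and some counts of the other transcription factors, the sums of some marker lists and the results of 1. Cdh1 and the neighboring genes fall outside this rule and were chosen after their values were seen.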

Additional observations from a re-analysis of the deposited data

How the results depend on the processing

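No call of the 6 members other than Twist1 was lost under any alternative, and 8 values gained a call, all of Zeb1 or Zeb2 and given with their results. The sign turned in 6 of 404 values of all 7 members, none called and each without 1 sample. Twist1 in the tumors lay between 2.95 and 4.82 on the log2 scale over P7 cerebella and between 2.48 and 4.04 over SHH MB. Counts of genes called moved more. Against P7 cerebella 1874 genes were called, 4437 by DESeq2 (here also over genes that edgeR's filter removed, unlike the shares in the report), 229 with only the groups compared, 371 with the replicate block, 1120 by limma on the deposited values, 87 at an adjusted p of at most 0.01 with log2 changes of 2.5 or more, and 3869 at an adjusted p of at most 0.1. Without single samples the count ran from 195 (without P7 cerebellum 2) to 9932 (without tumor 3). Against SHH MB 1403 were called, and in the same order 3065, 388, 631, 875, 180 and 2504, and from 311 (without SHH MB 3) to 6729 (without tumor 3). In SHH MB against P7 cerebella 67 were called, 466 by DESeq2, 143 with at least 10 counts in every library, 6883 with only these groups, 19 with the replicate block, 3 at the stricter and 118 at the looser threshold. Without single samples edgeR called 0 to 1210 (without tumor 1), and the 5 settings with 0 had 1308 to 1998 genes at an unadjusted p of at most 0.05. The cause was not tested, apart from fewer samples or another threshold. Correlations between samples of the same number in different groups were -0.274 to 0.162. With so few samples in each group, these values cannot decide whether the numbers pair samples. Of the list counts without single samples, added after the data were seen, 374 held within 1.5 times and 106 did not. Counts of 2 to 32 for Twist2, Snai1 and Snai2 limit what those genes can show.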
